A study of Mus musculus with 2 samples.

Results

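The tubulin isotype genes are the alpha-tubulin genes Tuba1a, Tuba1b, Tuba1c and Tuba4a and the beta-tubulin genes Tubb2a, Tubb2b, Tubb3, Tubb5 and Tubb6. They were taken by name from a fixed list, and all 9 are among the 22711 genes listed in both data files. RNA came from 2 cultured lines of immortal mouse embryonic fibroblasts (MEF), both hybrids of the mouse strains C57BL/6N (B6) and PWK/PhJ (PWK). In the B6-Xi line, of the cross PWK/PhJ X C57BL/6N, the B6 copy of the X chromosome is the inactive one; in the PWK-Xi line, of the cross C57BL/6N X PWK/PhJ, it is the PWK copy. Neither line carries a stated treatment or engineered allele, and the sources used here do not say whether a line is 1 clone. Each line has 1 library, so there is no replicate error, no test and no p-value below, and every difference is between 2 libraries. Values are FPKM, fragment numbers corrected for transcript length and for library size, given separately for the B6 and the PWK allele; a gene's level is the sum of both, and its B6 share is the B6 value as a percentage of that sum. All 9 genes are autosomal, on 6 chromosomes, so none lies on the X that defines the lines.

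Microtubules are hollow filaments built from dimers of an alpha- and a beta-tubulin, and mammals encode each partner by several genes, the isotypes. The proteins are close to identical except for an acidic tail at the C-terminal end, which lies on the outside of the microtubule, is the place of most tubulin modifications and binds many motors and associated proteins. Tubulin messenger RNAs are also autoregulated: free tubulin dimers trigger their decay on the ribosome through the factor TTC5. Fibroblasts use microtubules for transport, polarity, migration and the mitotic spindle.

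Some of the isotype genes are hard to separate by sequence, which bears on the levels and shares of those genes below. The last 60 coding bases before the stop codon, which encode most of the acidic tail, show how the beta genes compare. They are from the GENCODE M21 transcripts (GRCm38, the B6 reference strain), 5′ to 3′, with capitals where a base differs from the aligned base of Tubb5 or has none.
Tubb5: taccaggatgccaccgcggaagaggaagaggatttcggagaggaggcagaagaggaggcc
Tubb2a: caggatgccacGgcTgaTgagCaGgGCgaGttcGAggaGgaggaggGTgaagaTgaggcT
Tubb2b: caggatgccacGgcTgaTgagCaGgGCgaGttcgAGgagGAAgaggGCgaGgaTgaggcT
Tubb3: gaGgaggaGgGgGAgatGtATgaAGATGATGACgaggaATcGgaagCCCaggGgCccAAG
Tubb2a differs from Tubb5 at 15 bases, Tubb2b at 18 and Tubb3 at 29. Over the whole coding sequence Tuba1a was 98.3% identical to Tuba1b and 97.1% to Tuba1c, but 84.8% to Tuba4a. Tubb2a and Tubb2b were 96.5% identical to each other, while Tubb5 was 80.2% to 84.6% identical to the other beta members. After the stop codon Tuba1a and Tuba1b were 43.0% identical.

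Exact matches give the same picture on the scale of a read. Of all 50-base windows of the coding sequence, 94.8% for Tuba1b, 90.8% for Tuba1c and 86.2% for Tuba1a also occur in an annotated transcript of another gene. The values were 65.2% for Tubb2b and 60.2% for Tubb2a. They were 2.39% for Tuba4a and 0.0779% for Tubb5, and no window was shared for Tubb3 or Tubb6. With 100-base windows Tuba1b still stood at 86.0% and Tuba1a at 67.7%, and Tuba4a and Tubb5 at 0%. The members therefore fall into near-copies (the Tuba1 genes, which lie side by side on chromosome 15, and the Tubb2 genes, side by side on chromosome 13) and genes of distinct sequence (Tuba4a, Tubb3, Tubb5 and Tubb6). The sources used here do not say how the authors treated reads that match several genes, so levels of the near-copies are uncertain one against the other.

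**Figure D1:**
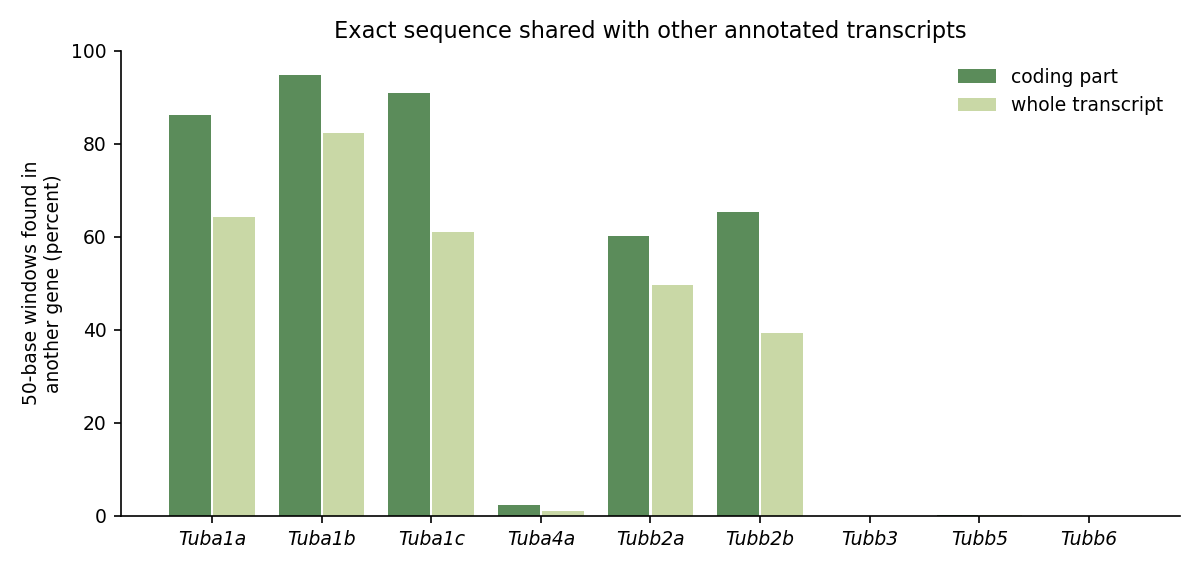
Percentage of 50-base windows of each isotype's annotated transcript that occur unchanged in a transcript of another gene, for the coding part (dark bars) and the whole transcript (light bars). The Tuba1 genes reach 86.2% to 94.8% of the coding part, the Tubb2 genes 60.2% and 65.2%, and the remaining members 2.39% or less.

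The summed level of the isotypes was lower in PWK-Xi. The 9 genes together had 1388 FPKM in B6-Xi against 676.8 in PWK-Xi, a 2.05-fold difference, and made up 0.486% and 0.264% of the FPKM of each library. Alpha genes had 829.4 and 350.7 FPKM (2.36-fold) and beta genes 558.8 and 326.1 FPKM (1.71-fold). The difference lay on both alleles: the B6 alleles of the 9 genes had 576.6 and 277.4 FPKM, 2.08-fold lower in PWK-Xi, and the PWK alleles had 811.5 and 399.3 FPKM, 2.03-fold lower. Tuba1a alone carried much of it, and the other 8 genes together had 737.3 and 458.4 FPKM, 1.61-fold lower. Tubb3, Tubb5 and Tubb6, whose sequences are distinct and which were above 0 in both lines, had 528.7 and 319.9 FPKM together, 1.65-fold lower. In RNA of whole cultures, fewer cells of a type and less RNA per cell cannot be told apart.

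Gene by gene, 8 of the 9 members had at least 5 FPKM in either line, and 7 of these were above 0 in both. Of the 8, 3 were at least 2-fold lower in PWK-Xi (Tuba1a, Tubb2a and Tubb2b), against 5.83% of the 5490 genes with such a level. Tuba4a was at least 2-fold higher, against 17.8% of them, but only because it was listed at 0 in B6-Xi. The 3 lower genes are all near-copies, so the Tubb2 pair may not be separate calls. Summed, the Tuba1 genes were 2.56-fold and the Tubb2 genes 4.86-fold lower. No gene of distinct sequence was at least 2-fold lower as deposited. Calls of 2-fold use log2((PWK-Xi + 1)/(B6-Xi + 1)). The median of this difference over the 5241 genes above 0 in both lines was 0.19. Log2 differences of members and their neighbours, and medians of partner lists, are printed with this median subtracted unless stated otherwise. Measured from that median, 8.67% of genes were at least 2-fold lower and 13.99% higher; among members this adds Tubb5 to the lower ones. Counting only the 5241 genes, 5.95% were at least 2-fold lower and 14.1% higher as deposited, against 3 and 0 of the 7 members. Of the 7 members above 0 in both lines 6 were lower in PWK-Xi by any amount, as were 39.6% of the 5241 genes, and the median of the 7 was -1.06. Abundant genes leaned the same way as the abundant isotypes. For the 297 genes that reached 100 FPKM in each line, a limit chosen after seeing the data, the median, without the shift, was -0.21, 9.09% were at least 2-fold lower in PWK-Xi and 4.38% higher; whether this lean of abundant genes has a part in the isotype differences was not tested.

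**Figure D2:**
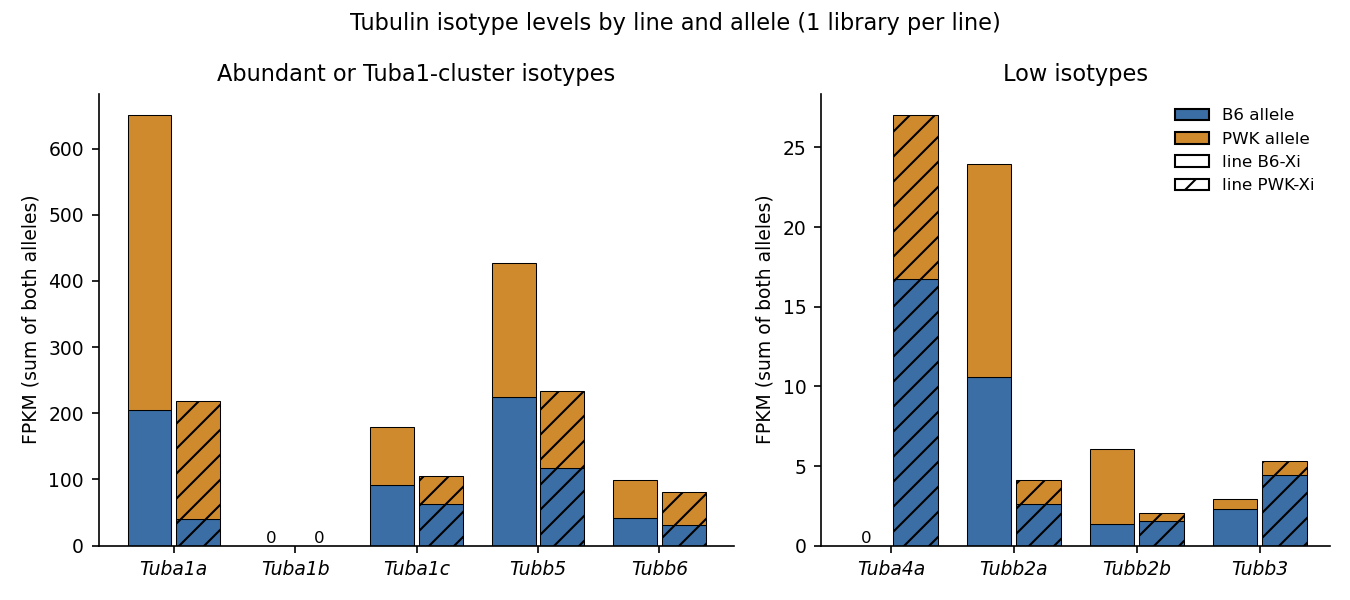
FPKM of each isotype in B6-Xi (plain bars) and PWK-Xi (hatched bars), split into the B6 allele (blue) and the PWK allele (orange), with abundant isotypes and the Tuba1 genes on the left and low isotypes on a smaller scale on the right. Tuba1a and Tubb5 are the highest bars of each line, Tuba1b is at 0 in both lines, and Tuba4a is at 0 in B6-Xi only.

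Tuba1a was the leading alpha gene. It encodes the alpha isotype best known from developing neurons, where its mutations disturb brain folding. In B6-Xi it had 204.5 FPKM from the B6 allele and 446.3 from the PWK allele, and in PWK-Xi 40.5 and 177.9. Both alleles were thus lower in PWK-Xi, the B6 allele 5.05-fold and the PWK allele 2.51-fold, and the PWK allele was the higher one in each line. The total of 650.8 FPKM in B6-Xi against 218.4 in PWK-Xi was 2.98-fold lower there, a log2 difference of -1.76. By level Tuba1a ranked 75 in B6-Xi and 190 in PWK-Xi among all genes. Of the 297 abundant genes 9, itself included, lay as low or lower (3.03%).

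Tuba1c, a widely expressed alpha gene of the same cluster, had 91.2 FPKM from B6 and 87.4 from PWK in B6-Xi, against 63.4 and 41.9 in PWK-Xi. The total of 178.6 and 105.3 FPKM was 1.70-fold lower in PWK-Xi (log2 -0.95), inside the 2-fold limit. Tuba1b, usually among the most widely expressed alpha genes in proliferating cells, was listed at 0 for both alleles in both lines. So were 42.2% of all listed genes. A listed 0 is not read here as absence of the transcript: Tuba1b is the member whose sequence is most shared, and B2m and Ppia, which nearly all cells use, are also listed at 0 in both lines. As a cluster, the Tuba1 genes had 829.4 and 323.7 FPKM, 2.56-fold lower in PWK-Xi.

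Tuba4a, whose protein lacks the terminal tyrosine that the Tuba1 isotypes carry, was listed at 0 for both alleles in B6-Xi. In PWK-Xi it had 16.7 FPKM from B6 and 10.3 from PWK, 27.0 FPKM in total. A 0 in B6-Xi was listed for 4.76% of the 5065 genes that reached 5 FPKM in PWK-Xi, and no fold against 0 is given. Its closest measured neighbours on chromosome 1 were near the same level in both lines: Stk16, a kinase gene, had 9.87 and 11.4 FPKM, and Dnpep, a peptidase gene, 49.7 and 52.2 FPKM.

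Among the beta genes Tubb5 led. It encodes the class I beta isotype, the common form in dividing cells. Its B6 allele had 224.4 FPKM in B6-Xi against 116.9 in PWK-Xi, and its PWK allele 202.7 and 116.2. The alleles were close to each other within each line, and both were lower in PWK-Xi, 1.92-fold and 1.74-fold. The total of 427.1 and 233.1 FPKM was 1.83-fold lower (log2 -1.06), just inside 2-fold as deposited and just past it when measured from the median of all genes. Tubb6, the class V beta gene, had 42.2 FPKM from B6 and 56.5 from PWK in B6-Xi, against 31.3 and 50.2 in PWK-Xi. Its totals of 98.7 and 81.5 FPKM were the closest pair of any member above 0 in both lines, 1.21-fold apart.

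The Tubb2 genes, beta isotypes known mainly from brain, were low, and both were at least 2-fold lower in PWK-Xi. Tubb2a had 10.6 FPKM from B6 and 13.4 from PWK in B6-Xi, against 2.61 and 1.4998 in PWK-Xi. The total went from 24.0 to 4.11 FPKM, 5.83-fold lower (log2 -2.48), and 0.916% of the 5241 genes lay as low or lower. Tubb2b had 1.35 FPKM from B6 and 4.74 from PWK in B6-Xi, against 1.57 and 0.495 in PWK-Xi. Its total of 6.09 and 2.07 FPKM was 2.95-fold lower (log2 -1.40). As listed, that difference was in the PWK allele alone, 9.58-fold lower, while the B6 allele was 1.16-fold higher in PWK-Xi. These are low values of a near-copy. With the pseudocount of 1 FPKM the PWK allele differed by log2 -1.94, without the median subtracted. Genes on either side on chromosome 13 were also lower in PWK-Xi. Serpinb6a, a serine protease inhibitor gene, had 195.2 and 110.6 FPKM (log2 -1.01, or -0.81 without the median subtracted). Psmg4, a proteasome assembly gene, had 43.8 and 20.3 FPKM (log2 -1.27, or -1.08 without the median subtracted). Over the 20 nearest genes that reached 1 FPKM in each line, 10 on each side, the median was -0.30, and 1 of the 20 lay below Tubb2a.

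Tubb3, the class III beta isotype used as a marker of neurons, was the only member above 0 in both lines that was higher in PWK-Xi. It had 2.33 FPKM from B6 and 0.582 from PWK in B6-Xi, against 4.42 and 0.900 in PWK-Xi. The total of 2.91 and 5.32 FPKM was 1.83-fold higher (log2 0.50), inside 2-fold and at a low level. Neuron markers were near 0 in both lines. Of 10 listed, 6 were at 0 in both, among them Rbfox3, Dcx, Syp and Snap25, and the 10 summed to 4.45 FPKM in B6-Xi against 0.943 in PWK-Xi, the highest being Nefm with 3.73 FPKM in B6-Xi. Fibroblast markers were present, 9 of 10 in B6-Xi and 10 of 10 in PWK-Xi; Lum was listed at 0 in B6-Xi. They summed to 13332 and 2979 FPKM, mostly from S100a4 with 13006 and 2321, while Dcn had 79.1 and 456.4; what part these marker differences have in the isotype differences was not tested. Listed epithelial, endothelial and immune markers reached at most 3.25 FPKM (Cd68 in PWK-Xi).

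The isotype make-up was led by the same pair in both lines. The alpha percentages count Tuba1b as 0, as listed, and divide near-copies whose levels are uncertain one against the other. With that limit, Tuba1a held 78.5% of the alpha FPKM in B6-Xi against 62.3% in PWK-Xi. Tuba1c held 21.5% and 30.0%, and Tuba4a 0% and 7.71%. Among the beta members Tubb5 held 76.4% and 71.5%, Tubb6 17.7% and 24.996%, Tubb2a 4.29% and 1.26%, Tubb2b 1.09% and 0.634%, and Tubb3 0.521% and 1.63%. In both lines the order from the top was Tuba1a and Tubb5, then Tuba1c, then Tubb6, except that Tubb5 was above Tuba1a in PWK-Xi, by 233.1 against 218.4 FPKM. Without replicates, which neighbours in this order differ beyond their spread is unknown. Below Tubb6 the order was Tubb2a, Tubb2b and Tubb3 in B6-Xi, and Tuba4a, Tubb3, Tubb2a and Tubb2b in PWK-Xi. Tubb4b, a widely expressed beta gene outside the list, had 140.3 and 108.4 FPKM and ranked between Tuba1c and Tubb6 in B6-Xi and above Tuba1c in PWK-Xi. With it counted, Tubb5 held 61.1% and 53.6% of the beta FPKM. Of the coding 50-base windows of Tubb4b 61.3% also occur in another gene, so its level carries the same limit as those of the near-copies.

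Alpha genes held 59.7% of the members' summed FPKM in B6-Xi against 51.8% in PWK-Xi, a ratio of alpha to beta of 1.48 and 1.08. With Tubb4b among the beta genes the ratio was 1.19 and 0.807. The ratio rests on Tuba1a and on genes listed at 0, and it counts Tuba1b as 0 in both lines. Without Tuba1a the alpha genes held 24.2% and 28.9%. That higher value in PWK-Xi came mostly from Tuba4a, listed at 0 in B6-Xi and at 27.0 FPKM in PWK-Xi. Tuba1c, the only other alpha gene above 0, was 1.70-fold lower in PWK-Xi, near the 1.71-fold of the beta genes. Composition also differed by allele. In PWK-Xi Tuba1a held 33.6% of the alpha FPKM of the B6 alleles, below Tuba1c with 52.5%, but 77.3% of that of the PWK alleles. In B6-Xi it held 69.2% and 83.6%. The make-up of the beta genes moved less between alleles, with Tubb5 between 68.6% and 79.9% in all 4 combinations of line and allele.

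**Figure D3:**
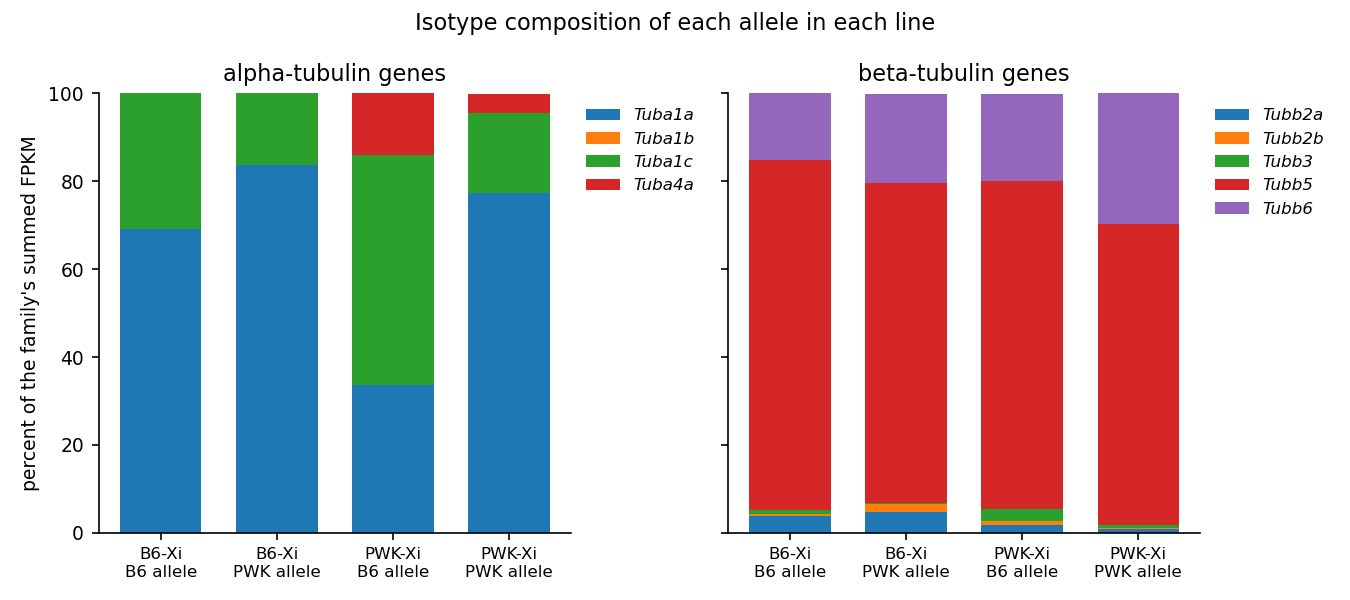
Percentage of the summed FPKM of the alpha members (left) and beta members (right) held by each isotype, for the B6 and the PWK alleles of each line. Tuba1a leads the alpha genes in every column but the B6 alleles of PWK-Xi, where Tuba1c holds 52.5%, and Tubb5 holds 68.6% to 79.9% of the beta genes throughout.

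The B6 share asks how evenly the strains' copies were expressed. Taken over the summed members it was 41.5% and 41.0%, against autosomal medians of 50.0% and 52.7%. Without Tuba1a it was 50.5% and 51.7%. Tuba1a lay below the medians of its surroundings in both lines, at a B6 share of 31.4% in B6-Xi against 18.5% in PWK-Xi. Its chromosome had medians of 52.2% and 54.5%, and its 20 nearest measured genes outside the cluster had medians of 50.5% and 55.6%. In PWK-Xi 19 of these 20 had a higher B6 share. In B6-Xi 15 did. These genes ranged from 0% to 100% in B6-Xi and from 8.57% to 81.8% in PWK-Xi, so Tuba1a was inside their range in both. Among the 3830 autosomal genes that reached 5 FPKM in each line, 0.836% had shares as low as those of Tuba1a in both. Tuba1c, in the same cluster, had 51.1% and 60.2%. The flanking genes were Arf3, a small GTPase gene, at 61.9% and 40.2%, and Tmbim6, a membrane protein gene linked to cell death control, at 60.4% and 61.6%. The lean of Tuba1a to PWK was therefore not seen in Tuba1c or in the medians around it. The sequence shared with Tuba1b and Tuba1c could touch it, and its part was not tested. Read depth is unknown, so how many reads the allele values and shares of Tuba1a rest on is unknown too. Shares in B6-Xi are the coarser ones, and no counting interval stands beside them.

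Tubb3 leaned to B6 in both lines, with 80.0% and 83.1%. At 2.91 and 5.32 FPKM these shares rest on low values, and in B6-Xi the alleles stood in the exact ratio of 4 of 5. All 20 nearest genes had B6 shares at or below that of Tubb3 in both lines, with medians of 53.3% and 54.1%. Among the 7441 autosomal genes that reached 1 FPKM in each line, 1.25% had shares as high in both. Tcf25, the flanking gene on one side, had 49.3% and 58.9%, and Galnt2, a glycosyltransferase gene on the other, 46.7% and 52.7%.

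Tubb5 and Tubb6, abundant and distinct in sequence, moved little. Tubb5 had 52.5% and 50.2%, next to chromosome 17 medians of 52.8% and 53.6%. Tubb6 had 42.8% and 38.5%, under the chromosome 18 medians of 46.4% and 51.8%; in PWK-Xi all 20 of its nearest genes had a higher share. Impa2 and Psmg2, which flank it, had 56.5% and 95.3%, and 42.9% and 42.9%.

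Tuba4a had 61.9% in PWK-Xi, where chromosome 1 as a whole leaned to B6 with a median of 70.2% and its 20 nearest genes with 74.1%. Stk16 and Dnpep beside it had 73.5% and 77.5% in that line. Its share was thus above 50% and below that of its surroundings.

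Of the 4 members that reached 5 FPKM in each line none differed in B6 share by 20 points or more between the lines, against 26.8% of 3830 autosomal genes. The moves were -12.9 points for Tuba1a, -4.33 for Tubb6, -2.38 for Tubb5 and 9.12 for Tuba1c. With a minimum of 1 FPKM, 1 of 7 members did, against 34.6% of 7441 genes. This was Tubb2b, with 22.2% in B6-Xi and 76.1% in PWK-Xi; in B6-Xi its alleles stood in the exact ratio of 2 of 9. Tubb2a moved the same way by 19.3 points, from 44.2% to 63.5%. Chromosome 13 had medians of 53.6% and 52.6%, and the 20 genes nearest to the pair 47.6% and 52.2%. The 2 near-copies together had 39.8% and 67.7%.

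**Figure D4:**
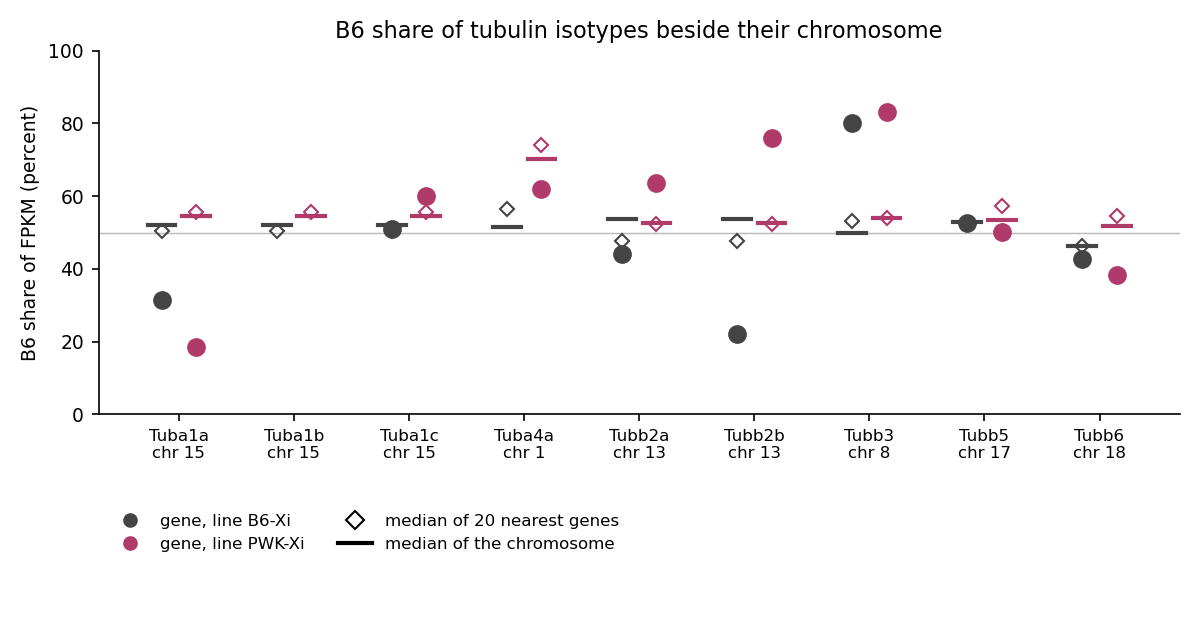
B6 share of each isotype in B6-Xi (dark grey circles) and PWK-Xi (dark pink circles), with the median of its 20 nearest measured genes (open diamonds) and of its chromosome (bars) in the same line. Tuba1a lies under and Tubb3 over the medians of their surroundings in both lines, and Tubb2b lies under them in B6-Xi and over them in PWK-Xi.

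Promoters are shown for the most abundant alpha and beta member, the genes that carried most of the summed difference. The windows run from 250 bases before to 50 after the RefSeq gene start on the minus strand of GRCm38.p6. The build differs from the mm9 build of the submitters' processing notes, and no measured value was placed by these coordinates. Capitals mark matches, on either strand, to CCAAT, the core of the box bound by NF-Y, and to GGGCGG, the GC box bound by SP1.
Tuba1a, chr15:98953452-98953751: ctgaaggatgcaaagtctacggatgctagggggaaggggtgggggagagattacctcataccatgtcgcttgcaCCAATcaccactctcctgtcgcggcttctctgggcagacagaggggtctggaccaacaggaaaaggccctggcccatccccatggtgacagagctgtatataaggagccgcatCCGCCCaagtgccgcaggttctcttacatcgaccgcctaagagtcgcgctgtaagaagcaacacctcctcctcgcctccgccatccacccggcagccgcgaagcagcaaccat
Tubb5, chr17:35838252-35838551: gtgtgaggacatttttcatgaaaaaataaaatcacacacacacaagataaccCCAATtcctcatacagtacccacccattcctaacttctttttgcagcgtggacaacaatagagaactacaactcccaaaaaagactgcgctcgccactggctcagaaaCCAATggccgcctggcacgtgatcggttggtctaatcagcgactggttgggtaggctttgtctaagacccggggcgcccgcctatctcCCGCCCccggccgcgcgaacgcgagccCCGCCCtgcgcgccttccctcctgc
Tuba1a had 1 match to each motif, and Tubb5 had 2 to each. Of the 7 members with a window in the RefSeq table (Tubb2b and Tubb6 had none), 4 held CCAAT and 6 held GGGCGG, against 37.4% and 35.7% of all 32851 windows. TATAAA was found in 1 of the 7, Tubb2a, against 13.6% of all windows. A match describes the letters only.

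Genes whose pattern over the 4 allelic values was closest were sought among 1333 genes that reached 20 FPKM in each line. The measure was the Euclidean distance of centred log2(FPKM + 1). For Tuba1a the nearest was S100a1, a calcium-binding protein gene, at a distance of 0.766 (130.1 and 23.9 FPKM, B6 shares 30.1% and 16.5%). Fabp5, a fatty acid carrier gene, followed at 1.14 and Polr2l, an RNA polymerase subunit gene, at 1.24; the median of all candidates was 2.73. For Tubb5 the nearest were Pgd, of the pentose phosphate pathway, at 0.120, Cct4, a subunit of the chaperonin that folds tubulin and actin, at 0.134, and Rps26, a ribosomal protein gene, at 0.149, against a median of 1.22. The 4 values of a gene share their libraries.

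The counts of partner genes stand against 5.83% of the 5490 genes at least 2-fold lower and 17.8% higher. Of 8 folding and autoregulation genes with at least 5 FPKM, 1 was at least 2-fold lower in PWK-Xi and none higher, with a list median of -0.40 relative to all genes. The tubulin cofactor gene Tbca, whose protein holds free beta-tubulin, had 205.2 and 184.7 FPKM. The prefoldin subunit genes Pfdn5 and Pfdn1, for the complex that hands new tubulin to the chaperonin, had 245.6 and 196.5 FPKM and 121.3 and 142.2 FPKM. Pfdn4 and Pfdn2 had the largest upward log2 differences of the list, with 16.3 and 31.8 FPKM and 23.2 and 36.7 FPKM, and Arl2, the GTPase gene of the dimer assembly complex, had 63.7 and 47.8 FPKM. Tbcd, a further cofactor gene of that complex, was the gene past 2-fold, at 14.5 and 5.82 FPKM. Its B6 share was 8.47% and 56.5%. Ttc5, the autoregulation factor gene, had 3.10 and 4.14 FPKM, and Tbcb and Tbce were listed at 0 in both lines.

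Tubg1, the gamma-tubulin gene, had 16.9 and 17.7 FPKM with B6 shares of 38.03% and 68.8%. Of the 5 genes of the gamma-tubulin ring complex with at least 5 FPKM in either line none passed 2-fold in either direction. Their median was -0.02 as deposited and -0.21 relative to all genes. Mzt2 had 15.04 and 12.3 FPKM, Mzt1 8.81 and 8.97, Tubgcp2 6.08 and 6.00, Tubgcp3 5.64 and 4.74 and Nedd1 4.05 and 5.86. Of 5 measured tubulin-modifying enzyme genes, 2 were at least 2-fold lower in PWK-Xi and none higher, against 5.83% and 17.8% of all genes. These were Hdac6, an X-linked tubulin deacetylase gene, at 7.33 and 2.70 FPKM, all from the X that is active in each line, and Ttll12, a member of the tyrosine ligase-like family, at 15.7 and 6.90 FPKM. Ccdc23, now Svbp, the partner of the vasohibin detyrosinases, had 32.2 and 31.7 FPKM, the deacetylase gene Sirt2 14.2 in both lines, and Ttll3 12.1 and 12.8.

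Of 18 measured genes of microtubule-associated proteins 2 were at least 2-fold higher in PWK-Xi and 1 lower, shares no higher than the 17.8% and 5.83% of all genes. The list median was 0.15 as deposited and -0.05 relative to all genes. Clasp2, a plus-end stabilizer gene, had 1.61 and 7.25 FPKM and was past 2-fold, and Camsap2, a minus-end binding protein gene, had 3.62 and 7.24. The other gene past 2-fold upward was Stmn2, listed at 0 in B6-Xi and at 5.22 FPKM in PWK-Xi. Map1b, a neuronal microtubule-binding protein gene, had 8.14 and 2.04 FPKM and was lower, and the end-binding protein gene Mapre3 had 5.33 and 2.75. Stmn1, whose protein sequesters tubulin dimers, was the most abundant, at 127.4 and 104.1 FPKM. The transport motor gene Kif5b had 32.8 and 36.3 FPKM and the end-binding protein gene Mapre1 18.2 and 20.5. The remaining tubulin genes were low: Tuba8 had 0 and 2.31 FPKM, Tubd1 2.07 and 1.33, Tube1 0.678 and 1.36 and Tubg2 0 and 1.46. Tuba3a, Tuba3b, Tubal3, Tubb1 and Tubb4a were listed at 0 in both lines.

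**Figure D5:**
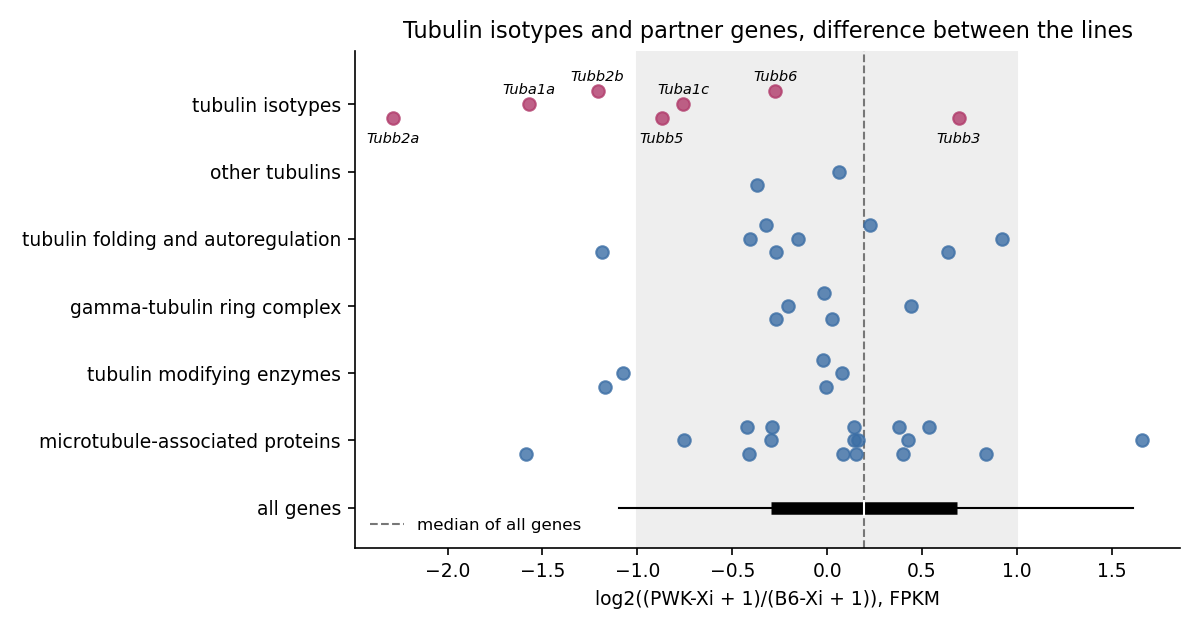
Log2 difference in FPKM, PWK-Xi over B6-Xi and without subtracting the median, for isotype genes (pink) and partner genes (blue) with at least 5 FPKM in either line and above 0 in both; the grey band marks 2-fold, the dashed line the median of all genes (0.19), and the lowest row the 25th to 75th (thick) and 5th to 95th (thin) percentile of all 5241 genes. The 3 isotypes left of the band are Tubb2a, Tuba1a and Tubb2b.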

How the data were processed

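Smart-seq2 libraries were made from oligo-dT-primed RNA of 2 immortal MEF lines, per the labels' protocols. HISAT2 2.2.0 and StringTie 2.1.1, with Trim Galore 0.6.4, are listed with the build mm9, per the submitters' processing notes. The authors deposited FPKM per gene for the B6 and the PWK allele, per the file headers; the assignment of reads to a strain and the treatment of reads matching several genes are not given in the sources used here. These are not counts, so read depth is unknown and no counting interval is given. FPKM summed to 285397 in B6-Xi and 256196 in PWK-Xi, with 10127 and 12907 genes above 0. Among genes with at least 1 FPKM, 47.1% and 12.8% had a B6 share within 0.001 points of a simple fraction (denominator up to 10), so B6-Xi shares are the coarser ones.

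Groups came from the sample titles. Alleles were summed, and lines were compared as log2 with a pseudocount of 1 FPKM, which understates the change of low genes. Shares used no pseudocount. Of the 22711 genes, 22628 were matched by symbol to GENCODE M21 or RefSeq, used for chromosomes and gene order only. Coding sequences were those of the longest protein-coding GENCODE transcript of each gene; windows were searched on both strands against all transcripts, leaving out genes that overlap the member. Scripts ran under Python 3.11.15 with Biopython 1.88, pandas 2.3.3, numpy 2.4.6 and matplotlib 3.10.9, and were tested on simulated data. Named were all members, other tubulins, the 3 most abundant and the 2 most different genes per direction of each partner list, the nearest genes on each side that reached 5 FPKM in each line, and the 3 nearest patterns. Genes named outside this rule (Ttc5, Tbcb, Tbce, Stmn2, Lum, B2m, Ppia and markers at 0), the sums over gene clusters and the backgrounds set at a member's own value were chosen after their values were seen. The members and lists were chosen with earlier results of these data known. The coding ends of the alpha genes are not reported here.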

Additional observations from a re-analysis of the deposited data

How the results depend on the processing

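No paired analysis was possible because each line has 1 library, and for the same reason no replicate could be left out. Log2 values in this paragraph are without the median subtracted, except in the centring alternative. Of 42 alternative log2 values of single members (pseudocount, scaling, centring and single alleles), 41 kept their sign. Tubb2b turned from -1.21 to 0.13 with the B6 allele only, a value below the 0.19 median of all genes. With the PWK allele only it moved to -1.94. With the B6 allele only, Tuba1a moved from -1.57 to -2.31 and Tubb2a from -2.29 to -1.68. These values kept their sign but moved past 1.5-fold. The summed difference, -1.04 in the main setting, stayed between -0.68 and -1.23 over its alternatives, and -1.23 was the centred one. The alternatives included 3 chosen after seeing the data (without Tuba1a, with Tubb4b and Tuba8, and Tubb3, Tubb5 and Tubb6 only). Between 2 and 4 members were at least 2-fold lower; without a pseudocount 0 were higher, since Tuba4a then has no value. The percentage of all genes at least 2-fold lower was 15.9% with the PWK allele only and 3.48% with no filter on low values, and that of genes higher was 27.6% with the B6 allele only. Tuba1a held 33.6% of the alpha FPKM of PWK-Xi with the B6 allele only and 77.3% with the PWK allele only. Tubb5 held 61.1% in B6-Xi and 53.6% in PWK-Xi of all measured beta tubulins. Without Tuba1a the alpha genes held 24.2% in B6-Xi and 28.9% in PWK-Xi, where the value includes Tuba4a, listed at 0 in B6-Xi. The B6 share of the sum without Tuba1a was 51.7% in PWK-Xi. With a minimum of 1 FPKM, 1 member differed by 20 points in B6 share. Scaling the allele columns to equal sums moved no member's share by more than 2.34 points. A log2 value counts as moved here past 1.5-fold and a percentage past 10 points, as no error exists to set them against. The causes of these moves were not tested.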
